A study of Mus musculus with 45 samples.

Results

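Apoptosis and necroptosis were followed through 9 genes, chosen by symbol for their known place in these pathways: Fas, Casp8, Ripk1, Ripk3, Mlkl, Daxx, Mcl1, Bcl2l1 and Bcl2l11. They are 9 of the 24421 genes in the deposited expression table, and all 9 passed the filter on low values that left 11380 genes to test. The cells were bone-marrow-derived macrophages of C57BL/6 mice, grown with L929-conditioned medium, a source of the macrophage growth factor CSF1, and taken on day 7 of differentiation. Poly(A) RNA was sequenced from 7 groups of 3 libraries, numbered 1 to 3. Cells were given IFN-γ (100 ng/ml) together with IL-4 (10 ng/ml) for 4 h or 2 h, IFN-γ alone (100 ng/ml) for 4 h or 2 h, or IL-4 alone (10 ng/ml) for 4 h or 2 h. The seventh group was left untreated and served both times. All groups shared the strain and the culture, no genetic change separated them, and the labels do not say whether libraries came from separate mice or cultures. The comparisons ask how a cytokine of classical activation (IFN-γ) and one of alternative activation (IL-4) act on these transcripts, alone and together.

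As background, Fas is a death receptor of the TNF receptor family. When its ligand binds, it recruits an adaptor and the initiator protease caspase-8, and the cell is taken apart by caspases. Where caspase-8 is not active, the kinases RIPK1 and RIPK3 can instead assemble the necrosome, in which RIPK3 phosphorylates MLKL, the pseudokinase that ruptures the plasma membrane. DAXX is a histone H3.3 chaperone that was first described as a partner of Fas. On the mitochondrial side, MCL-1 and BCL-XL (from Bcl2l1) hold back apoptosis, and BIM (from Bcl2l11) is a BH3-only protein that binds and neutralises such guardians.

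The libraries held between 28920801 (untreated, replicate 2) and 80028327 reads (untreated, replicate 3), and the fewest reads of any of the 9 genes in a library were 153 (Fas, untreated, replicate 2). Rn45s, the ribosomal RNA precursor, took 0.151%, 43.2% and 15.7% of the reads in untreated replicates 1, 2 and 3, and at most 3.21% in a treated library. Levels are therefore given as rescaled CPM, the deposited CPM (read counts scaled to a fixed total per library) divided by a factor per library that sets the median gene equal. As deposited, the median log2 change over all genes against untreated cells was 0.19 and 0.29 for both cytokines, 0.10 and 0.27 for IFN-γ and 0.43 and 0.39 for IL-4 at 4 h and 2 h. A gene was called when limma's adjusted p was under 0.05. With 3 libraries per group, groups that do not overlap are common. Against untreated cells at 4 h, 26.6% of all genes were higher without overlap with both cytokines and 24.0% lower. These shares were 24.2% and 21.6% with IFN-γ, and 19.0% and 16.4% with IL-4. At 2 h they were 18.0% and 14.4% with both, 16.1% and 13.3% with IFN-γ, and 12.2% and 9.14% with IL-4. Libraries with 1 replicate number resembled each other across groups, and the main fit, with 1 mean per group, takes no account of this. Values from a second fit with the replicate number as a block are therefore given wherever they change a call of the 9 genes. That fit calls far more of all genes, and its share or number of them is given with its counts. Of 9 macrophage markers, 8 were in the table and all 8 passed the filter, with sums of 16632 to 37123 CPM over the 21 libraries. No marker of T cells, NK cells, erythroid cells or mast cells passed it, and Klra8, Hbb-b1, Hba-a1 and Mcpt4 had no read in any library. All 4 fibroblast markers passed, with sums of 6.45 to 17.4 CPM over the libraries, as did 1 of 3 dendritic-cell markers (sums of the 3, 0.938 to 2.41 CPM). The sum of 4 B-cell markers was 7.38 to 14.7 CPM with both cytokines at 4 h and 3.40 to 4.13 CPM in untreated cells, nearly all of it Cd79b, while Cd79a and Ms4a1 never exceeded 0.152 CPM. In RNA from whole cultures, a change in the cells present and a change in RNA per cell cannot be told apart.

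The promoter windows of 3 of the 9 genes carried a letter pattern of cytokine-activated factors, and these windows are shown. Whether the patterns bear on how the genes moved was not tested. RefSeq windows on GRCm38.p6 run from 250 bases before to 50 after a start site, and all 9 genes matched, with 15 windows in all. Searched on both strands were TTCNNNGAA, the GAS element, GAAANNGAAA, a core of the interferon-stimulated response element, and TTCNNNNGAA, the spacing that STAT6 favours. Of all 32851 windows in the table, 8.298% held the GAS pattern, 3.443% the response element and 6.953% the STAT6 spacing. Counted by gene over all its windows, the shares were 9.554%, 3.993% and 8.007% of 27025 genes. The share of genes with any of the 3 was not counted. Matches are in capitals, and the positions that follow count from the start site to the first base of the match. Fas (chr19:34290409-34290708, plus strand, its 1 window) held a GAS pattern at -93. Ripk1 (chr13:34002624-34002923, plus strand, 1 of its 2 windows) held GAS patterns at -108 and -11, an interferon-stimulated response element at -5 whose first bases are the last of the GAS pattern before it, and the STAT6 spacing at -124. Bcl2l1 (chr2:152828440-152828739, minus strand, 1 of its 3 windows) held the STAT6 spacing at -4. None of the 3 patterns was found in the windows of Casp8, Ripk3, Mlkl, Daxx, Mcl1 and Bcl2l11, which says only that these letters are not there.
Fas: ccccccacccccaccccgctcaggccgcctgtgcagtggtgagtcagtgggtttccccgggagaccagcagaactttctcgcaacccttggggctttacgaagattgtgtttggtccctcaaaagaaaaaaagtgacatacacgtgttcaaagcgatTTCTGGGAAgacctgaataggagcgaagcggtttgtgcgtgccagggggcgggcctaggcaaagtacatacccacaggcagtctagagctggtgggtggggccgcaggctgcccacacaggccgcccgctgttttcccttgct
Ripk1: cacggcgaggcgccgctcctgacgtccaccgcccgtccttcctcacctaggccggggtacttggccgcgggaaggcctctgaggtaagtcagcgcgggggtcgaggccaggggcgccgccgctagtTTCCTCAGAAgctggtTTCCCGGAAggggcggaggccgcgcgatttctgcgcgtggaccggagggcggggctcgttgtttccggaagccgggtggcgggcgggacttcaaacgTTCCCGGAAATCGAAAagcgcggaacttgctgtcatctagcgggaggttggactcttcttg
Bcl2l1: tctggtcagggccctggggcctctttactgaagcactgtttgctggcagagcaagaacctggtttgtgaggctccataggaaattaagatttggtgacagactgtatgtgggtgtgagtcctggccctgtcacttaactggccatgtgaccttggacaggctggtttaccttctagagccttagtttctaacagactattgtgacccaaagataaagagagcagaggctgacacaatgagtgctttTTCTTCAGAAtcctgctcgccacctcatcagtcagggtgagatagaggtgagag

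IFN-γ raised the receptor arm and the executioner of necroptosis together. At 4 h, 6 of the 9 genes rose against untreated cells and none fell, where 39.2% of all genes tested were called and 21.3% were called higher. Fas showed the largest change of the 9, followed by Mlkl and Daxx, while Casp8, Bcl2l1 and Ripk1 rose less. At 2 h the same 6 genes had risen, beside 17.9% of all genes called and 10.8% called higher. The replicate block called all 9 at 4 h, beside 63.3% of all genes, and 8 at 2 h, beside 38.1%.

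Fas (ENSMUSG00000024778.13, chromosome 19, 34290666 to 34327772, plus strand, GRCm38 with GENCODE vM21) was at 185, 75.7 and 140.0 CPM in replicates 1 to 3 after 4 h of IFN-γ, against 14.3, 9.13 and 12.1 CPM in untreated cells. After 2 h of IFN-γ it was at 76.0, 56.6 and 88.3 CPM. No IFN-γ library came near the untreated range. The log2 change was 3.32 ± 0.25 at 4 h (adjusted p = 2.2e-08) and 2.54 ± 0.25 at 2 h (adjusted p = 1.2e-06), where ± is the standard error here and for every log2 change below.

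**Figure D1:**
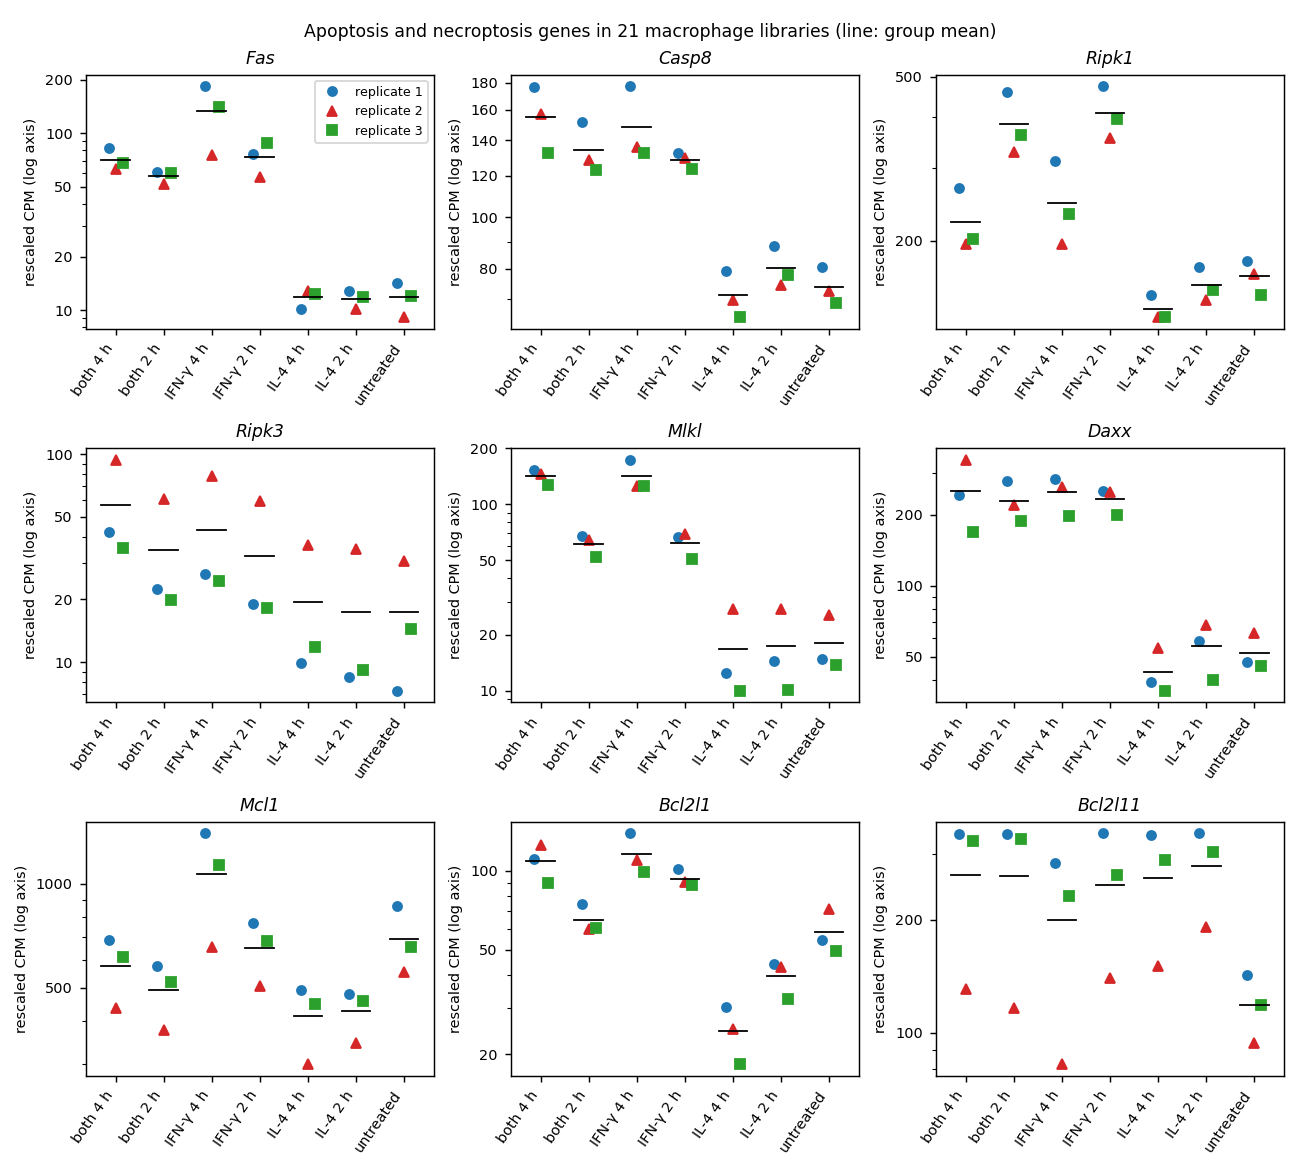
Levels of the 9 genes in each of the 21 libraries, as rescaled CPM on a log axis, with the group on the horizontal axis (both: IFN-γ and IL-4), 1 point per library, the replicate number by colour and shape, and a line at the group mean. Fas, Casp8, Mlkl and Daxx lie higher in every library with IFN-γ than in any library without it, and Ripk3 is highest in replicate 2 of every group.

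Casp8, which encodes the initiator caspase downstream of Fas (ENSMUSG00000026029.14, chromosome 1, 58795374 to 58847503, plus strand), stood at 177, 136 and 133 CPM after 4 h of IFN-γ, against 80.7, 72.5 and 68.8 CPM in untreated cells. Its libraries at 2 h of IFN-γ had 133, 129.9 and 123 CPM. The groups did not overlap at either time. The change was 0.99 ± 0.13 at 4 h (adjusted p = 1.2e-05) and 0.79 ± 0.13 at 2 h (adjusted p = 2.6e-04).

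Ripk1, the kinase at the branch between survival, apoptosis and necroptosis (ENSMUSG00000021408.15, chromosome 13, 34002363 to 34037147, plus strand), had its higher levels at the early time. It measured 311, 196 and 231 CPM after 4 h of IFN-γ and 475, 356 and 394 CPM after 2 h, against 178, 166 and 148 CPM in untreated cells. All 6 IFN-γ libraries exceeded all 3 untreated ones. The change was 1.30 ± 0.17 at 2 h (adjusted p = 3.0e-05) and 0.56 ± 0.17 at 4 h (adjusted p = 0.016). The call at 4 h was lost without IFN-γ replicate 1 (adjusted p = 0.10), without untreated replicate 3 (0.067), without replicate 3 of every group (0.22), with untreated replicate 1 as the only control (0.24) and in CPM recomputed without Rn45s and Lars2 (0.096, log2 change 0.25). Exons of Ripk1 share 241 bases with Serpinb6a on the opposite strand, which reached 674 CPM, and 511 bases with the pseudogene Gm17084. Whether reads were counted by strand is not given in the sources used here, so the level of Ripk1 is uncertain.

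Ripk3, the kinase that activates MLKL (ENSMUSG00000022221.14, chromosome 14, 55784995 to 55788865, minus strand), differed widely between replicate numbers as well as between treatments. It had 26.5, 78.9 and 24.5 CPM after 4 h of IFN-γ and 19.0, 59.6 and 18.2 CPM after 2 h, against 7.28, 30.6 and 14.5 CPM in untreated cells. Each IFN-γ library exceeded the untreated library of its own number, but replicate 2 of untreated cells lay above replicates 1 and 3 of IFN-γ. The change of 1.26 ± 0.70 at 4 h was not called (adjusted p = 0.17), and neither was that of 0.84 ± 0.70 at 2 h (0.54). Both passed with the replicate block, at 1.26 ± 0.16 (adjusted p = 3.3e-06) and 0.84 ± 0.16 (4.8e-04), and without replicate 2 of any group the adjusted p values were 0.0018 and 0.038.

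Mlkl, the pore-forming end of the pathway (ENSMUSG00000012519.14, chromosome 8, 111311797 to 111338177, minus strand), reached 173, 125 and 126 CPM after 4 h of IFN-γ, against 14.9, 25.4 and 13.8 CPM in untreated cells. At 2 h it had 66.4, 69.5 and 50.7 CPM. The groups were well apart at both times. The change was 2.94 ± 0.34 at 4 h (adjusted p = 3.3e-06) and 1.77 ± 0.34 at 2 h (adjusted p = 0.0011), and the call at 2 h was lost without replicate 1 of every group (0.085).

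Daxx (ENSMUSG00000002307.16, chromosome 17, 33909414 to 33915590, plus strand) stood at similar levels at both times. It had 284, 263 and 198 CPM after 4 h of IFN-γ and 252, 248 and 199 CPM after 2 h, against 47.7, 63.0 and 45.7 CPM in untreated cells. The 6 IFN-γ libraries overlapped each other and none overlapped an untreated one. The log2 change was 2.23 ± 0.25 at 4 h (adjusted p = 2.6e-06) and 2.14 ± 0.25 at 2 h (adjusted p = 9.1e-06).

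Of the BCL-2 family genes among the 9, the replicate block called all under IFN-γ at 4 h. In the main fit Bcl2l1 was the 1 gene of them called. This gene (ENSMUSG00000007659.18, chromosome 2, 152780668 to 152831728, minus strand) had 139, 110.1 and 99.3 CPM after 4 h of IFN-γ and 101, 90.6 and 87.9 CPM after 2 h, against 54.4, 71.4 and 49.6 CPM in untreated cells. No library crossed over. The change was 0.98 ± 0.19 at 4 h (adjusted p = 5.6e-04) and 0.68 ± 0.19 at 2 h (adjusted p = 0.018). The call at 2 h was lost without untreated replicate 1 (0.062), untreated replicate 3 (0.091) or IFN-γ replicate 1 (0.068), without replicate 1 (0.17) or 3 (0.090) of every group, and with untreated replicate 1 as the only control (0.085).

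Mcl1 (ENSMUSG00000038612.16, chromosome 3, 95658788 to 95663176, plus strand) showed 1404, 657 and 1138 CPM after 4 h of IFN-γ and 769, 505 and 682 CPM after 2 h, against 862, 557 and 656 CPM in untreated cells. Within each replicate number the 4 h value was the higher one, but replicate 2 at 4 h lay below replicate 1 of untreated cells. The change at 4 h was 0.58 ± 0.28 (adjusted p = 0.12), and it was called with the replicate block (± 0.09, adjusted p = 4.1e-05) and without IFN-γ replicate 2 (0.017). At 2 h it was -0.08 ± 0.28, with a 95% interval of -0.69 to 0.52.

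Bcl2l11 (ENSMUSG00000027381.16, chromosome 2, 128126038 to 128162547, plus strand) had 284, 82.5 and 231 CPM after 4 h of IFN-γ and 340.2, 139.9 and 263 CPM after 2 h, against 143, 94.1 and 118 CPM in untreated cells. Replicate 2 stayed apart from replicates 1 and 3 in both IFN-γ groups. At 4 h it lay below untreated replicate 2 (82.5 and 94.1 CPM), whereas replicates 1 and 3 lay above the untreated libraries of their numbers. Neither the change of 0.59 ± 0.52 at 4 h (adjusted p = 0.41) nor that of 0.99 ± 0.52 at 2 h (0.25) was called, whereas the replicate block called both (0.0081 and 2.4e-04).

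**Figure D2:**
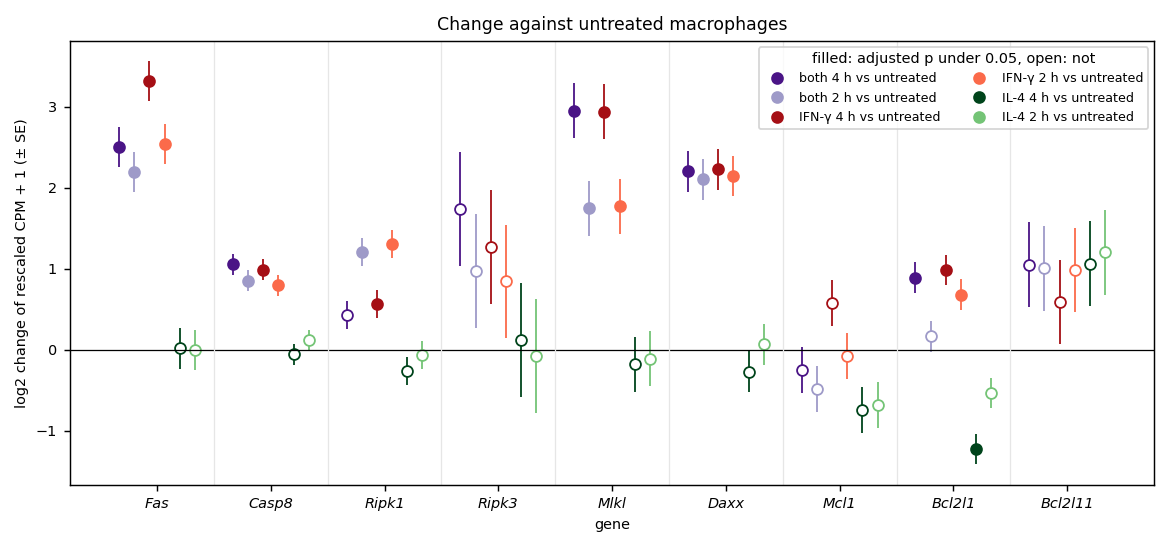
Log2 change of the 9 genes against untreated cells in the 6 treated groups, with the gene on the horizontal axis, error bars of 1 standard error, and filled points at an adjusted p under 0.05. Fas, Casp8, Mlkl and Daxx are filled in every group with IFN-γ, and Bcl2l1 at 4 h of IL-4 is the 1 filled point below 0.

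The genes differed in their time course under IFN-γ. Between 4 h and 2 h, Mlkl rose further by 1.17 ± 0.34 (adjusted p = 0.025) and Fas by 0.78 ± 0.25 (adjusted p = 0.038), while Ripk1 fell by 0.74 ± 0.17 (adjusted p = 0.0061). These 3 of 9 stand beside 17.7% of all genes called, 9.89% higher and 7.77% lower. Since the untreated libraries are shared, each value is also the difference between the effects at the 2 times. The libraries of Mlkl and Ripk1 did not overlap between times, whereas Fas in replicate 2 at 4 h (75.7 CPM) lay below replicates 1 and 3 at 2 h. Of all genes, 15.4% were higher and 14.2% lower without overlap between these times. As deposited, 1 of the 9 was called (Ripk1, adjusted p = 0.0052, with Mlkl at 0.077 and Fas at 0.20), beside 8.04% of all genes. The call of Ripk1 was lost without replicate 3 of every group (0.19). That of Mlkl was lost in CPM without Rn45s and Lars2 (0.061), without replicate 1 (0.28) or 3 (0.18) of every group, and without IFN-γ replicate 3 at 2 h (0.10) or replicate 1 at 4 h (0.11). That of Fas was lost with no filter (0.060), without replicate 1 (0.34) or 3 (0.30) of every group, and without IFN-γ replicate 1 (0.068) or 2 (0.15) at 2 h, or 1 (0.22) or 3 (0.12) at 4 h. With the replicate block, 6 of the 9 were called beside 45.2% of all genes, adding Casp8 (0.20, adjusted p = 0.026), Ripk3 (0.42, 0.043) and Mcl1 (0.66, 2.5e-05). Daxx changed by 0.08 ± 0.25, with a 95% interval of -0.46 to 0.62.

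Under IL-4 alone, limma without the replicate block called Bcl2l1 lower at 4 h and no other of the 9 genes, and the block called more. At 4 h, 1 of the 9 was called against untreated cells, beside 22.1% of all genes called and 10.1% called lower. At 2 h limma and edgeR called none, beside 8.62% of all genes by limma, DESeq2 called 1 (Bcl2l1, adjusted p = 0.046), and 3 had an unadjusted p under 0.05. The replicate block called 4 of the 9 at 4 h, beside 47.5% of all genes, and 3 at 2 h, beside 25.5%. As deposited, where the median gene shifted upwards, 2 were called at 4 h, beside 36.6% of all genes, and 1 at 2 h, beside 16.7%.

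Bcl2l1 had 30.3, 25.1 and 18.3 CPM after 4 h of IL-4 and 44.0, 42.9 and 32.6 CPM after 2 h, against 54.4, 71.4 and 49.6 CPM in untreated cells. All 6 IL-4 libraries lay below all 3 untreated ones. At 4 h the gene fell by 1.23 ± 0.19 (adjusted p = 1.5e-04), a call that held in 19 of 19 other settings. The change at 2 h was -0.54 ± 0.19 (adjusted p = 0.10, and 0.0032 with the replicate block). Between 4 h and 2 h of IL-4 none of the 9 was called by limma or edgeR, beside 2.81% of all genes by limma, and 1 had an unadjusted p under 0.05. That gene was Bcl2l1, which differed by -0.69 ± 0.19 (adjusted p = 0.064, 7.0e-04 with the block, which called 1 of the 9 beside 19.8% of all genes, and 0.019 by DESeq2).

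The other 2 BCL-2 family genes lay on opposite sides of their untreated levels under IL-4, called by the replicate block and not by the main fit. Mcl1 was at 494, 299.9 and 447 CPM after 4 h of IL-4 and at 479, 346 and 457 CPM after 2 h, against 862, 557 and 656 CPM in untreated cells. Bcl2l11 was at 336, 151 and 289 CPM after 4 h and at 339.6, 191 and 302 CPM after 2 h, against 143, 94.1 and 118 CPM in untreated cells. For both genes the IL-4 libraries and the untreated libraries did not overlap at either time, Mcl1 being lower and Bcl2l11 higher in all of them. Of all genes, 16.4% and 9.14% were lower without overlap at 4 h and 2 h, and 19.0% and 12.2% higher. The values for Mcl1 were -0.75 ± 0.28 at 4 h (adjusted p = 0.071) and -0.68 ± 0.28 at 2 h (0.19), and those for Bcl2l11 were 1.06 ± 0.52 at 4 h (0.17) and 1.20 ± 0.52 at 2 h (0.22). With the replicate block all 4 passed (Mcl1 4.6e-06 and 2.8e-05, Bcl2l11 9.7e-05 and 6.3e-05 at 4 h and 2 h), and so they did without replicate 2 of any group (0.0081, 0.017, 2.3e-04 and 3.9e-04). As deposited, Bcl2l11 passed at both times (0.021 and 0.030) and Mcl1 at neither (0.50 and 0.53).

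Fas under IL-4 had 10.2, 12.9 and 12.4 CPM at 4 h and 12.8, 10.2 and 11.8 CPM at 2 h, inside the untreated range of 9.13 to 14.3 CPM, and its 95% interval at 4 h ran from -0.52 to 0.54. Casp8 differed from untreated cells by -0.06 ± 0.13 at 4 h and 0.12 ± 0.13 at 2 h, Mlkl by -0.18 ± 0.34 and -0.11 ± 0.34, Daxx by -0.27 ± 0.25 and 0.07 ± 0.25, and Ripk3 by 0.12 ± 0.70 and -0.08 ± 0.70. The interval of Ripk3 at 4 h, -1.38 to 1.63, is wide. Ripk1 had 148, 131 and 130.3 CPM at 4 h of IL-4 and 173, 144 and 152 CPM at 2 h. It differed by -0.26 ± 0.17 at 4 h (adjusted p = 0.32), a value that the replicate block called (0.017), and by -0.07 ± 0.17 at 2 h.

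Because the BCL-2 proteins act against each other in pairs, the ratio of reads within a library, which no scaling touches, was also taken, a measure chosen after the values were seen and given as a description. The log2 ratio of Bcl2l11 to Mcl1 was -0.73 ± 0.23 (SD, n = 3) at 4 h of IL-4 and -0.65 ± 0.19 at 2 h, against -2.54 ± 0.07 in untreated cells. It was -2.53 ± 0.40 and -1.47 ± 0.35 at 4 h and 2 h of IFN-γ, and -1.23 ± 0.44 and -1.05 ± 0.56 with both cytokines. All 6 IL-4 libraries thus lay at least 1 log2 unit above all 3 untreated ones, and the 4 h IFN-γ libraries lay on both sides of them. The ratio of Bcl2l11 to Bcl2l1 was 3.35 ± 0.70 at 4 h of IL-4 and 2.77 ± 0.55 at 2 h, against 1.02 ± 0.54 in untreated cells. With both cytokines it was 1.17 ± 0.97 at 4 h and 1.86 ± 0.79 at 2 h, and with IFN-γ alone 0.61 ± 0.90 and 1.32 ± 0.60. Replicate 2 gave the lowest value of this second ratio in every group.

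**Figure D3:**
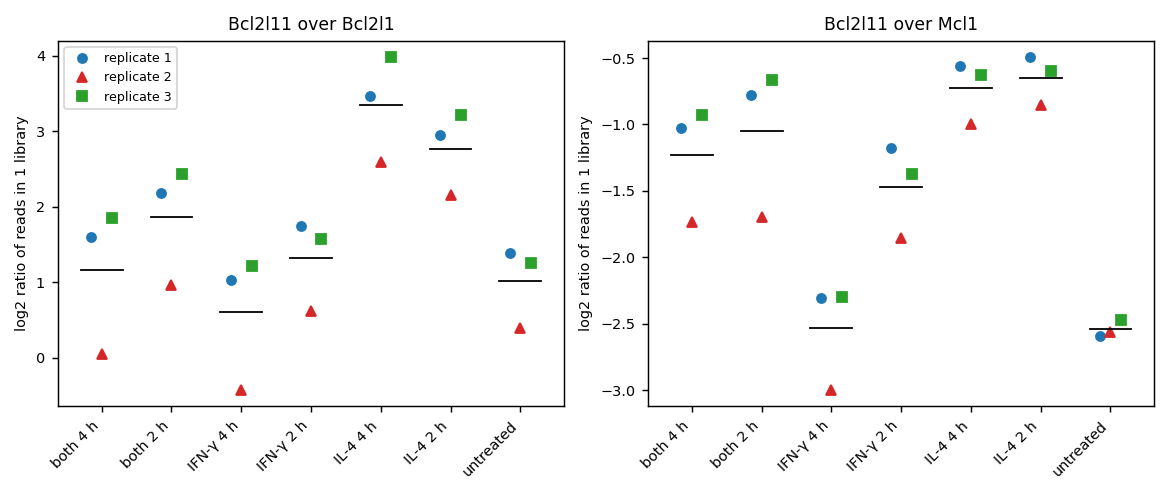
Log2 ratio of the reads of Bcl2l11 to those of Bcl2l1 (left) and of Mcl1 (right) within each library, by group, with 1 point per library and a line at the group mean. Every IL-4 library lies above every untreated library in both panels, and the untreated libraries lie between -2.59 and -2.47 in the right one.

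With both cytokines, Fas, Casp8, Mlkl and Daxx rose at both times, Bcl2l1 rose at 4 h and Ripk1 at 2 h. At 4 h, 5 of the 9 genes rose against untreated cells, beside 42.6% of all genes called and 22.8% called higher, and at 2 h again 5, beside 22.2% called and 12.8% called higher. The block called 9 at 4 h, beside 66.7% of all genes, and 8 at 2 h, beside 43.4%, with Mcl1 lower and the rest higher.

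Fas had 82.3, 62.8 and 67.9 CPM with both cytokines at 4 h and 60.0, 51.9 and 59.2 CPM at 2 h, against 14.3, 9.13 and 12.1 CPM in untreated cells (log2 change 2.50 ± 0.25 and 2.19 ± 0.25, adjusted p = 4.2e-07 and 3.9e-06). Mlkl had 152, 144 and 127 CPM at 4 h and 67.2, 64.0 and 51.9 CPM at 2 h (2.95 ± 0.34 and 1.75 ± 0.34, adjusted p = 2.4e-06 and 9.7e-04). Daxx had 241, 342 and 169 CPM at 4 h and 277, 219.8 and 188 CPM at 2 h (2.20 ± 0.25 and 2.11 ± 0.25, adjusted p = 2.2e-06 and 7.6e-06). None of these libraries overlapped the untreated ones. Casp8 had 176, 157 and 132 CPM at 4 h and 152, 128 and 123 CPM at 2 h, with changes of 1.05 ± 0.13 (adjusted p = 5.0e-06) and 0.85 ± 0.13 (1.0e-04). The call of Mlkl at 2 h was lost without replicate 1 of every group (0.080).

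Ripk1 had 268, 196 and 202 CPM with both cytokines at 4 h and 458, 329 and 361 CPM at 2 h. It rose by 1.21 ± 0.17 at 2 h (adjusted p = 4.8e-05), and at 4 h its value of 0.42 ± 0.17 missed the threshold (adjusted p = 0.056, against 3.2e-04 with the block, 0.016 as deposited and 0.047 by DESeq2). Ripk3 had its highest group mean with both cytokines at 4 h. It measured 42.1, 94.1 and 35.4 CPM at 4 h and 22.4, 61.1 and 19.8 CPM at 2 h, against 7.28, 30.6 and 14.5 CPM in untreated cells. At 4 h all 3 libraries exceeded all 3 untreated ones, as did those of 26.6% of all genes. The value of 1.73 ± 0.70 missed the threshold (adjusted p = 0.056) and passed with the block (5.8e-08), as deposited (0.038) and without untreated replicate 2 (0.029). That of 0.97 ± 0.70 at 2 h (adjusted p = 0.41) passed with the block (1.0e-04) and without replicate 2 of any group (0.012).

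In the BCL-2 family, Bcl2l1 had 111, 126 and 89.9 CPM with both cytokines at 4 h and 74.8, 59.8 and 60.6 CPM at 2 h, against 54.4, 71.4 and 49.6 CPM in untreated cells. It rose by 0.89 ± 0.19 at 4 h (adjusted p = 0.0011), where the groups did not overlap, and at 2 h it differed by 0.16 ± 0.19, where they did. Bcl2l11 had 338, 131 and 324 CPM at 4 h and 338, 117 and 328 CPM at 2 h, against 143, 94.1 and 118 CPM in untreated cells. Replicates 1 and 3 lay far above the untreated libraries and replicate 2 among them, and the values of 1.05 ± 0.52 (adjusted p = 0.12) and 1.00 ± 0.52 (0.21) passed with the block (5.7e-05 and 1.6e-04), and at 4 h by DESeq2 (0.040) and without combination replicate 2 (0.041). Mcl1 differed from untreated cells by -0.26 ± 0.28 at 4 h (adjusted p = 0.50, 0.023 with the block) and by -0.49 ± 0.28 at 2 h (0.28, 3.7e-04 with the block).

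Between both cytokines and IFN-γ alone, 1 of the 9 genes was called at 4 h, a share near that of all genes. Of all genes, 11.9% were called and 5.98% were called lower, and the block called 3 of the 9, beside 32.6% of all genes. At 2 h limma, edgeR and DESeq2 called none, beside 3.01% of all genes by limma, and the block called 2, beside 10.4%. Of the 9, 1 had a 95% interval that left out 0 at 2 h. Fas fell by 0.82 ± 0.25 at 4 h (adjusted p = 0.039), with 82.3, 62.8 and 67.9 CPM for both cytokines against 185, 75.7 and 140.0 CPM for IFN-γ. It was lower in each of the 3 replicate numbers, but the groups overlapped through replicate 2 of IFN-γ. The call was lost as deposited (0.17), with no filter (0.062), without replicate 1 (0.32) or 3 (0.53) of every group, without IFN-γ replicate 1 (0.22) or 3 (0.14), and without combination replicate 2 (0.13) or 3 (0.11). At 2 h Fas differed by -0.34 ± 0.25, and the change of this difference between times was -0.48 ± 0.35, with a 95% interval of -1.23 to 0.28. For that change between times limma, edgeR and DESeq2 called none of the 9, beside 0.36% of all genes by limma. None of the 9 had a 95% interval that left out 0.

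Mcl1 had 687, 436 and 616 CPM with both cytokines at 4 h, against 1404, 657 and 1138 CPM with IFN-γ, a difference of -0.84 ± 0.28 (adjusted p = 0.068) that was lower in every replicate number and passed with the replicate block (2.3e-06), by DESeq2 (0.017) and without IFN-γ replicate 2 (0.0092). At 2 h the 3 libraries with both cytokines had 579.7, 378 and 521 CPM, against 769, 505 and 682 CPM with IFN-γ (-0.40 ± 0.28, 0.0075 with the block). Bcl2l1 had 74.8, 59.8 and 60.6 CPM with both cytokines at 2 h, against 101, 90.6 and 87.9 CPM with IFN-γ. These groups did not overlap, yet the value of -0.52 ± 0.19 was not called (adjusted p = 0.24, and 0.0084 with the block). Of all genes, 4.965% were lower without overlap in this comparison. At 4 h the block also called Ripk3 (0.47, adjusted p = 0.034). For Mlkl, Daxx and Casp8 the difference at 4 h was 0.01 ± 0.34, -0.03 ± 0.25 and 0.07 ± 0.13, with 95% intervals of -0.72 to 0.74, -0.57 to 0.51 and -0.21 to 0.34.

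IFN-γ added to IL-4 raised 6 of the 9 genes at 4 h (30.9% of all genes called, 15.7% higher) and 6 at 2 h (14.8% called, 8.68% higher). These were Fas, Casp8, Ripk1, Mlkl, Daxx and Bcl2l1 at both times. Bcl2l1 was also the 1 gene called for a change of this effect with time. It had 111, 126 and 89.9 CPM with both cytokines at 4 h, against 30.3, 25.1 and 18.3 CPM with IL-4 alone, a rise of 2.12 ± 0.19 (adjusted p = 2.7e-07). At 2 h the values were 74.8, 59.8 and 60.6 CPM with both cytokines, against 44.0, 42.9 and 32.6 CPM with IL-4 (0.70 ± 0.19, adjusted p = 0.018). The difference between the times was itself called, at 1.42 ± 0.27 (adjusted p = 0.0070), as 1 of the 9 genes beside 2.89% of all genes called and 1.98% called higher. It was not called without replicate 1 (0.11), 2 (0.086) or 3 (0.12) of every group, and with the block the count was 4 beside 21.9% of all genes (Ripk1 -0.59, Casp8 0.38 and Mlkl 1.27 added). The call of Bcl2l1 at 2 h was lost as deposited (0.069), without replicate 1 (0.14) or 3 (0.11) of every group, without IL-4 replicate 3 (0.10) and without combination replicate 1 (0.090).

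**Figure D4:**
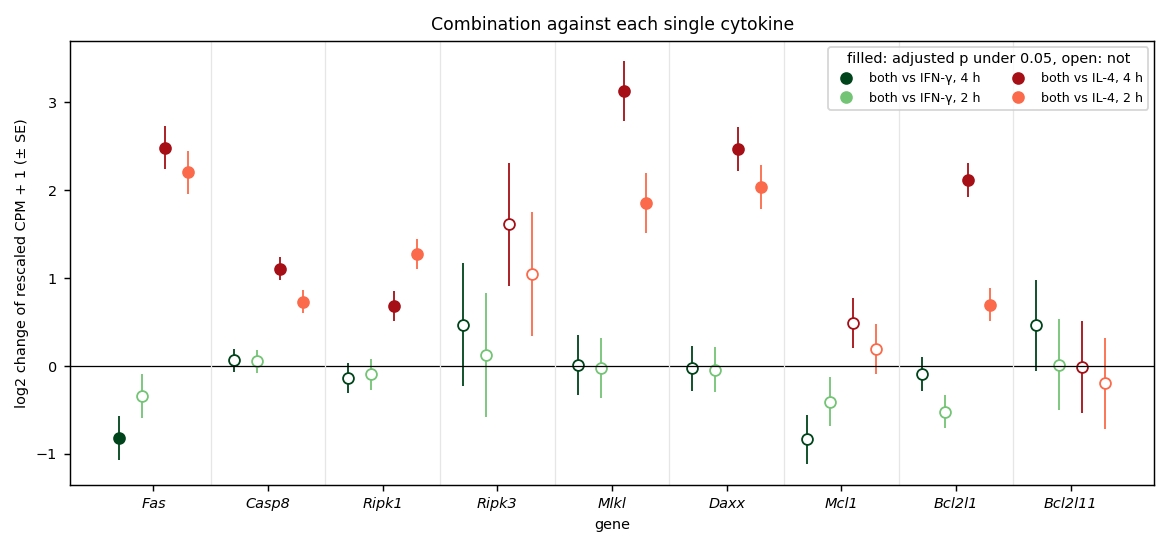
Log2 difference of the 9 genes between both cytokines and IFN-γ alone, and between both cytokines and IL-4 alone, at 4 h and 2 h, with error bars of 1 standard error and filled points at an adjusted p under 0.05. Against IFN-γ, Fas at 4 h is the 1 filled point, and against IL-4 all filled points lie above 0.

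Of the other genes raised against IL-4, Mlkl differed by 3.13 ± 0.34 at 4 h and 1.86 ± 0.34 at 2 h, Fas by 2.49 ± 0.25 and 2.21 ± 0.25, Daxx by 2.47 ± 0.25 and 2.04 ± 0.25, and Casp8 by 1.11 ± 0.13 and 0.73 ± 0.13. The call of Mlkl at 2 h was lost without replicate 1 of every group (0.086). Ripk1 differed by 0.69 ± 0.17 at 4 h and 1.28 ± 0.17 at 2 h, and its call at 4 h was lost as deposited (0.11) and without replicate 3 of every group (0.11). Ripk3 differed by 1.61 ± 0.70 at 4 h (adjusted p = 0.095) and 1.05 ± 0.70 at 2 h (0.44), both called with the block (2.5e-07 and 7.1e-05). Mcl1 had 687, 436 and 616 CPM with both cytokines at 4 h, against 494, 299.9 and 447 CPM with IL-4, and its value of 0.49 ± 0.28 (adjusted p = 0.21) passed with the block (2.6e-04). The block thus called 8 of the 9 genes at 4 h, beside 56% of all genes, and 7 at 2 h, beside 33.2%. Bcl2l11 differed by -0.01 ± 0.52 at 4 h, with a 95% interval of -1.13 to 1.11.

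Between 4 h and 2 h of both cytokines, Mlkl rose by 1.20 ± 0.34 (adjusted p = 0.020), Bcl2l1 by 0.73 ± 0.19 (0.013), and Ripk1 fell by 0.79 ± 0.17 (0.0039). These are 3 of 9 beside 18.3% of all genes called, 9.41% higher and 8.89% lower, and 5 with the block beside 46.9% (Casp8 0.21 and Ripk3 0.77 added). The call of Ripk1 was lost without replicate 3 of every group (0.16). That of Bcl2l1 was lost as deposited (0.058), without replicate 1 (0.062) or 2 (0.13) of every group, and without combination replicate 2 at 4 h (0.059). That of Mlkl was lost without replicate 1 (0.19) or 3 (0.14) of every group, and without combination replicate 3 at 2 h (0.077) or 1 (0.064) or 2 (0.053) at 4 h.

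Ordered by group mean, Fas stood at 133 ± 54.8 CPM (SD, n = 3, here and for each mean that follows) with IFN-γ at 4 h, 73.7 ± 16.0 with IFN-γ at 2 h, 71.0 ± 10.1 with both at 4 h and 57.0 ± 4.51 with both at 2 h. The untreated cells and the IL-4 groups, at 11.6 to 11.8 CPM, overlapped each other far below. Bcl2l1 ran through 116 ± 20.6 CPM with IFN-γ at 4 h, 109 ± 18.0 with both at 4 h, 93.3 ± 7.07 with IFN-γ at 2 h, 65.1 ± 8.43 with both at 2 h, 58.5 ± 11.5 in untreated cells, 39.8 ± 6.29 with IL-4 at 2 h and 24.6 ± 6.01 with IL-4 at 4 h. Its first 3 groups overlapped each other, as did both at 2 h and untreated cells, while each IL-4 group lay clear of its neighbours. For Mcl1, from 1066 ± 379 CPM with IFN-γ at 4 h through 691 ± 156 in untreated cells to 414 ± 101 with IL-4 at 4 h, every group overlapped the next one in order. Ripk1 was highest at 2 h of IFN-γ (408 ± 60.7 CPM) and of both (383 ± 67.3), then at 4 h of IFN-γ (246 ± 59.2) and of both (222 ± 39.9), and these pairs did not overlap each other or the untreated and IL-4 groups.

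For 3 of the genes, replicate 2 was the highest or the lowest library in every group. Ripk3 was highest in replicate 2 in 7 of 7 groups, on average 2.97-fold above the mean of replicates 1 and 3 on the scale of rescaled CPM + 1, and 2.17% of all genes deviated more in replicate 2 in either direction. Bcl2l11 was lowest there in 7 of 7 groups (0.462-fold), with 3.92% of all genes deviating more, and Mcl1 in 7 of 7 (0.667-fold, 12.7%). Fas was lowest in replicate 2 in 6 of 7 groups (0.774-fold) and Ripk1 in 5 (0.861-fold). Mlkl and Daxx were highest there in 4 groups each (1.39-fold and 1.27-fold). Casp8 and Bcl2l1 in replicate 2 averaged 0.959-fold and 1.07-fold over the 7 groups. The sum of the 8 macrophage markers was also lower in replicate 2, at 16632 to 20997 CPM over the 7 groups, against 27567 to 36703 CPM in replicate 1 and 25138 to 37123 CPM in replicate 3. By group this sum overlapped everywhere, with 18586 to 27583 CPM for both cytokines at 4 h and 20997 to 36703 CPM in untreated cells. Over the 21 libraries Lyz2, its largest part, ran from 9880 to 27054 CPM and Csf1r from 2266 to 5878. Adgre1 ran from 1203 to 2026, Cd68 from 1109 to 1652 and Itgam from 705 to 1000. Fcgr1 ran from 108 to 1369, Cd14 from 124 to 461 and Mertk from 57.8 to 161. The sum of 4 neutrophil markers was 98.9 to 174 CPM in replicate 2, 109.9 to 224 CPM in replicate 1 and 43.6 to 73.6 CPM in replicate 3. The part of these markers in the results was not tested.

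**Figure D5:**
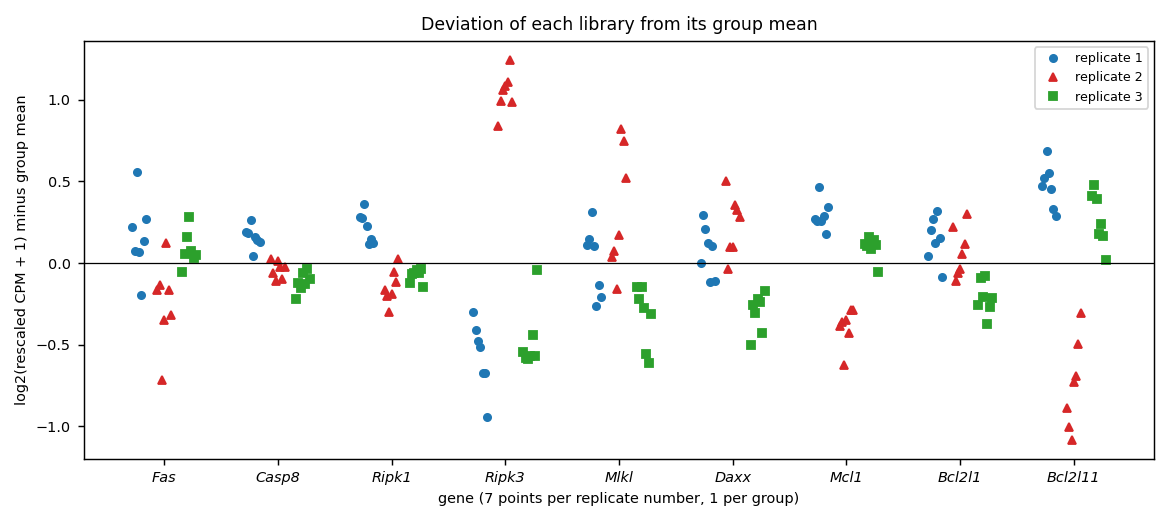
Deviation of each library from the mean of its group, on the log2(rescaled CPM + 1) scale, for the 9 genes, with 7 points (1 per group) for each replicate number. All 7 points of replicate 2 lie above 0 for Ripk3 and below 0 for Bcl2l11 and Mcl1.

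Genes with the most similar pattern over the 21 libraries were looked up among 2600 genes with a mean of at least 5 CPM and a log2 range of group means of at least 1. The libraries share replicate numbers and a scaling, so the correlations only describe the pattern. For Fas these were Selp (P-selectin, Pearson r = 0.987), Gpr18 (0.986) and Fam26f (0.985). For Mlkl they were Parp12 (0.998), Zbp1, a nucleic acid sensor that can activate RIPK3 (0.992), and Herc6 (0.989), and for Daxx they were Tlr3, the receptor for double-stranded RNA (0.988), Brdt (0.986) and Akap12 (0.983). Casp8 was nearest to Usp12 (0.984), Stx11 (0.974) and Ifi205 (0.972), Ripk1 to Adora3 (0.979), Ppp1r3d (0.973) and Zfp456 (0.955), and Ripk3 to Oas1g (0.959), Aldh18a1 (0.932) and Emp2 (0.931). Mcl1 was nearest to Plagl2 (0.965), Enc1 (0.958) and Ikbke (0.955), Bcl2l1 to Tdrd7 (0.955), Anxa7 (0.943) and Fcgr1 (0.940), and Bcl2l11 to Pla2g15 (0.921), Ddhd1 (0.890) and St3gal4 (0.882). Oas1g, Ifi205 and Zfp456 belong to multigene families whose copies can share reads, and their own levels are uncertain.

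The other genes of the cell death pathways give the setting. After 4 h of IFN-γ, 4 of 6 tested death receptors and ligands rose and 2 fell (median log2 change 1.34, where that of all genes was near 0), beside the 39.2% of all genes called. Tnf rose by 5.81 ± 0.55 (730.4 ± 423 CPM with IFN-γ and 10.3 ± 3.70 CPM in untreated cells, SD, n = 3 each), Tnfsf10, which encodes the death ligand TRAIL, by 4.65 ± 0.28, and Tnfrsf1a by 2.27 ± 0.20, whereas Tnfrsf1b, the second TNF receptor, fell by 1.74 ± 0.35. The Fas ligand gene Fasl was in the table but below the filter. Of 17 adaptors and regulators of the receptor and necrosome complexes, 12 rose and none fell (median 1.05). Of the 12, the largest changes were those of Tnfaip3 (the ubiquitin editor A20, 4.18 ± 0.60), Zbp1 (3.89 ± 0.46), Traf1 (2.24 ± 0.30) and Birc3 (2.24 ± 0.51).

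Of 8 other caspases, 6 rose and 1 fell after 4 h of IFN-γ (median 1.01), or 4 and 0 as deposited. The inflammatory caspases led, with Casp12 at 4.30 ± 0.21, Casp4 (caspase-11) at 3.48 ± 0.23 and Casp1 at 1.82 ± 0.18. Casp12 averaged 30.7 ± 5.62 CPM with IFN-γ and 0.625 ± 0.373 CPM in untreated cells (SD, n = 3 each). The latter is under the 1 CPM of the filter, so this log2 change depends on the 1 added to the CPM. Of the 10 other BCL-2 genes tested, 2 rose and 1 fell (median 0.11), namely Bak1 (1.07 ± 0.26) and Bax (0.34 ± 0.12), the effectors of the mitochondrial pore, and Bmf (-2.07 ± 0.43), a BH3-only gene. As deposited Bax was not called (adjusted p = 0.16). Of 8 apoptosome and IAP genes, 2 rose and 1 fell (Cycs 1.21 ± 0.32, Apaf1 0.74 ± 0.13, Htra2 -0.71 ± 0.17, median 0.16). Of 5 pyroptosis genes, 3 rose and 1 fell (median 0.74), with Nlrp3 at 1.82 ± 0.53, Gsdmd, whose product forms the pyroptotic pore, at 1.18 ± 0.17, Pycard at 0.68 ± 0.23 and Dfna5 at -1.15 ± 0.42. As deposited Htra2, Pycard and Dfna5 were not called (0.12, 0.055 and 0.089). With the replicate block, beside 63.3% of all genes, 3 other BCL-2 genes were higher and 2 lower, 3 apoptosome and IAP genes higher and 1 lower, and 4 pyroptosis genes higher and 1 lower, and the counts of the other 3 lists did not change.

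After 4 h of IL-4, 22.1% of all genes were called. Of 6 receptors and ligands 1 fell (Tnf, -1.94 ± 0.55), and of 17 adaptors and regulators 1 fell (Traf1, -0.98 ± 0.30). The medians of these lists were -0.34 and 0.10, against -0.01 for all genes. Both genes were low, Tnf at 1.96 CPM with IL-4 and 10.3 CPM in untreated cells, and Traf1 at 1.05 and 3.04 CPM. Of 8 caspases, Casp6 rose by 2.17 ± 0.13, with 101 ± 13.7 CPM in IL-4 cells and 21.6 ± 1.40 CPM in untreated cells, and Casp2 fell by 0.85 ± 0.09 (median -0.10). Among the other BCL-2 genes Bcl2, the founding guardian, rose by 1.31 ± 0.39 and Pmaip1, which encodes the MCL-1 antagonist NOXA, fell by 1.63 ± 0.25, 1 each of 10 (median -0.11). Apoptosome and IAP genes had 2 of 8 higher (Cycs 0.98 ± 0.32, Diablo 0.44 ± 0.14) and 3 lower (Apaf1 -0.91 ± 0.13, Htra2 -0.87 ± 0.17, Xiap -0.39), with a median of -0.14. Of 5 pyroptosis genes 2 fell (Dfna5 -1.45 ± 0.42, Ninj1 -1.18 ± 0.37, median -1.15). As deposited 4 of the other BCL-2 genes were higher and 1 lower, 8 adaptors and regulators were higher and none lower, and the calls of Traf1, Casp2, Apaf1, Htra2, Dfna5 and Ninj1 were lost (0.057, 0.11, 0.064, 0.23, 0.053 and 0.16). That of Xiap was lost too (0.75), and its value turned to 0.08. With the replicate block, beside 47.5% of all genes, 5 adaptors and regulators were higher and 2 lower, and of the other BCL-2 genes 3 were higher and 4 lower. In that fit no receptor or ligand was higher and 3 were lower, 1 caspase was higher and 2 lower, and no pyroptosis gene was higher and 3 were lower.

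Between both cytokines and IFN-γ alone at 4 h, Tnf fell by 4.21 ± 0.55 (35.2 ± 19.3 CPM with both and 730.4 ± 423 CPM with IFN-γ, SD, n = 3 each), as 1 of 6 receptors and ligands, beside the 11.9% of all genes called. Nlrp3 fell by 2.87 ± 0.53 as 1 of 5 pyroptosis genes, Pmaip1 by 2.02 ± 0.25 as 1 of 10 BCL-2 genes, and Apaf1 by 0.76 ± 0.13 as 1 of 8 apoptosome and IAP genes. Of the 17 adaptors and regulators, Traf1 (-2.85 ± 0.30) and Cflar, which encodes the caspase-8 inhibitor c-FLIP (-0.94 ± 0.27), fell and Ikbkg rose (0.70 ± 0.07). Of 8 caspases 2 rose and none fell, with Casp6 at 1.41 ± 0.13. The medians of the lists ran from -0.39 to -0.10, against -0.03 for all genes. As deposited, Cflar was not called (0.069), and the replicate block called 32.6% of all genes. With it 2 adaptors and regulators were higher and 9 lower, and no receptor or ligand was higher and 3 were lower. Of the caspases 2 were higher and 3 lower, of the other BCL-2 genes 2 and 2, of the apoptosome and IAP genes 2 and 3, and of the pyroptosis genes 0 and 3. Gsdme was listed under its older symbol Dfna5, and Bcl2a1a, Bcl2a1d, Bok, Bik and Hrk were in the table but below the filter.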

How the data were processed

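RNA of mouse bone-marrow-derived macrophages was sequenced as TruSeq poly(A) libraries. The submitters' processing notes name TopHat2 2.1.0, HTSeq, edgeR and the builds mm10 and GRCm38, and do not give their settings here. The authors deposited 1 table of CPM per gene, and 100% of its values are whole reads within 0.01 read, so reads were recovered for the count tools. CPM were divided by a median-ratio factor per library, because ribosomal RNA took a large share of 2 untreated libraries. The factors also differed among treated libraries, from 0.806 (IFN-γ at 4 h, replicate 1) to 1.22 (IL-4 at 4 h, replicate 2). Rn45s took 0.907% and 0.475% of the reads in these 2. Genes had to reach 1 CPM in 3 or more of the 21 libraries, and the 11380 that did were tested on log2(rescaled CPM + 1) with limma 3.58.1 (R 4.3.3), empirical Bayes with a trend, 1 mean per group and 14 residual degrees of freedom. There were 13 contrasts and 2 differences between times, with Benjamini-Hochberg adjustment over all genes tested in each and a threshold of 0.05. Every adjusted p in the report is limma's unless another tool is named.

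Same-numbered libraries of different groups deviated together (r of 0.54 to 0.95 over 63 pairs, against -0.86 to 0.37 over 126 pairs of unlike numbers). The replicate block therefore takes the numbers to pair the libraries. The main fit does not, so its standard errors hold the spread between replicate numbers. The origin of the libraries is not given, so p-values measure only the spread between these libraries, which may be technical. Alternatives were CPM as deposited, TMM, CPM without Rn45s and Lars2, a pseudocount of 0.5, no filter, the replicate block, edgeR 4.0.16, DESeq2 1.42.0, and leaving out each replicate number or library. Scripts were tested on simulated data. The 9 genes and all lists were chosen with earlier results of these data known. Named from the other lists are the up to 4 called genes per list with the largest absolute log2 change in 3 contrasts at 4 h, and Xiap, chosen after its value was seen. Some genes that this rule names are not reported here. Coordinates are from GENCODE vM21 and promoters from RefSeq. The 24 short-hairpin libraries were not analysed here. Python 3.11.15 drew the figures.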

Additional observations from a re-analysis of the deposited data

Results flagged for a closer look

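The effect of a treatment differed between 4 h and 2 h for 7 values, each by limma's test of the difference itself on the log2 scale. Of all genes, 17.7% were called for IFN-γ, 18.3% for both cytokines and 2.89% for IFN-γ added to IL-4. Each of the 7 calls was lost when at least 1 of the replicate numbers was left out of every group. Against untreated cells, the effect of IFN-γ at 4 h minus that at 2 h was 0.78 for Fas, 1.17 for Mlkl and -0.74 for Ripk1. For both cytokines against untreated cells it was 1.20 for Mlkl, 0.73 for Bcl2l1 and -0.79 for Ripk1. The untreated libraries served both times, so these 6 values are the contrasts between the times themselves. For IFN-γ added to IL-4, which shares no library between times, the difference for Bcl2l1 was 1.42. Mlkl and Ripk1 thus moved in opposite directions with time under both treatments, and both of these treatments contain IFN-γ and share the untreated libraries.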

How the results depend on the processing

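Of 2781 alternative log2 changes of the 9 genes, 2567 kept direction and side of the threshold, 57 lost a call, 157 gained one and 0 reversed. Smaller moves in the counts of the 9 genes called come first, and not all of these are given. For IFN-γ at 4 h and 2 h the replicate block gave 9 and 8 (6 and 6 without it), beside 63.3% and 38.1% of all genes. For both against IL-4 it gave 8 and 7 (6 and 6), beside 56% and 33.2%. As deposited the counts were 7 for both at 4 h (5 in the main fit) and 5 and 5 for both against IL-4. All genes called there were 3655, 3087 and 941. The counts that moved more follow. With the replicate block they were 4 and 3 for IL-4 at 4 h and 2 h (1 and 0 without it), 9 and 8 for both cytokines (5 and 5), 3 and 2 for both against IFN-γ (1 and 0), and 1, 6 and 5 between times for IL-4, IFN-γ and both (0, 3 and 3). For IFN-γ added to IL-4, 4 h minus 2 h, the block gave 4 (1 without it). Of the 11380 genes tested, the block called 5408 and 2903 for IL-4 and 7596 and 4944 for both cytokines. It called 3710 and 1180 for both against IFN-γ, and 2258, 5147 and 5337 between times. For IFN-γ added to IL-4, 4 h minus 2 h, it called 2496. The block on CPM as deposited gave 3 and 3 for IL-4, 8 and 8 for both, 3 for both against IFN-γ at 4 h, 1 between times for IL-4 and 2 for IFN-γ added to IL-4. In the same order, it called 6054 and 4338, 5181 and 3779, 1497, 462 and 526 of all genes. CPM as deposited gave 2 and 1 for IL-4, 0 for both against IFN-γ at 4 h and 1 for IFN-γ between times. In that order, all genes called as deposited were 4170 and 1903, 698 and 915. Without Rn45s and Lars2 the count was 2 for IL-4 at 4 h, 2 for both against IFN-γ at 4 h and 2 for IFN-γ added to IL-4. All genes called there were 2550, 1369 and 445. With no filter, so that more genes were tested, the count was 0 for both against IFN-γ at 4 h, beside 1371 of all genes. DESeq2 gave 2 and 1 for IL-4, 2 for both against IFN-γ at 4 h and 1 for IL-4 between times. In that order, all genes called by DESeq2 were 2870 and 1248, 1700 and 603. Chosen after seeing the data, the block without replicate 2 gave 5 and 3 for IL-4, 9 and 9 for both, 4 and 2 for both against IFN-γ, 1, 7 and 5 between times, and 1 and 4 for IL-4 added to IFN-γ and IFN-γ added to IL-4. Of all genes it called 5272 and 2858 for IL-4, 7373 and 4825 for both, and 4004 and 1476 for both against IFN-γ. Between times it called 2528, 5514 and 5149, and for the last 2 differences 1423 and 2474. The block with untreated replicate 1 as the lone control, also added, assumes that library to vary like the other groups, and its counts are not given. Without 1 replicate or library the counts ran from 1 to 3 and 0 to 2 for IL-4 at 4 h and 2 h, 5 to 9 and 4 to 8 for IFN-γ, 5 to 7 and 4 to 7 for both, 0 to 2 for both against IFN-γ at 4 h, 5 to 8 and 4 to 7 for both against IL-4, 0 to 1, 0 to 4 and 1 to 3 between times for IL-4, IFN-γ and both, and 0 to 2 for IFN-γ added to IL-4. Over all alternatives together, all genes called ran from 966 to 6054 and 239 to 4338 for IL-4 at 4 h and 2 h. They ran from 2326 to 7318 and 805 to 4336 for IFN-γ, and from 2835 to 7596 and 1227 to 4944 for both. For both against IFN-γ at 4 h they ran from 357 to 4004, and against IL-4 from 1697 to 6377 and 569 to 3856. Between times they ran from 24 to 2528, 394 to 5514 and 567 to 5337, and for IFN-γ added to IL-4 from 15 to 2496. These ranges cover the block fits too. The causes were not tested. Over all genes, IFN-γ at 4 h called 2429 higher and 2029 lower genes, 2014 and 869 as deposited, and 1414 and 4024 without Rn45s and Lars2, and the block called 7203 in all. IL-4 at 4 h called 1366 higher and 1149 lower, or 3880 and 290 as deposited, and 5408 in all with the block. The fewest reads of any of the 9 genes in a library were 153.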
